A study of Oryza sativa Indica Group with 18 samples.

Results

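The WRKY factors examined here were 5 rice genes, read from 6 probe sets of the Affymetrix rice array, among 17905 genes that have a probe set of their own. They were chosen by name from 8 WRKY genes: a probe set was taken when the array's gene table tied it to exactly 1 gene and the RefSeq symbol or a synonym of that gene was one of the names, with or without the prefix Os. WRKY24, WRKY51, WRKY62 and WRKY76 had 1 probe set each and WRKY71 had 2. The other 3 names (WRKY28, WRKY45 and WRKY53) matched no probe set in these tables and were not analysed here. The rule used no measured value, although the names were proposed with earlier results of these data known.

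WRKY proteins are plant transcription factors that bind W box elements in promoters through a domain with a zinc finger. Many of them answer within hours to pathogens, wounding, abscisic acid or loss of water, and they act both as activators and as repressors. In rice, WRKY71, WRKY51 and WRKY24 are known as repressors that keep gibberellin from switching on alpha-amylase genes in the aleurone, and transcripts of WRKY71 and WRKY51 rise there with abscisic acid. WRKY62 and WRKY76, which belong with WRKY71 to the subgroup called IIa, are known as repressors of defence that lower resistance to blast fungus and the making of diterpenoid phytoalexins. WRKY62 and WRKY76 lie next to each other on chromosome 9 with no other gene of the RefSeq table between them, while WRKY24, WRKY71 and WRKY51 lie on chromosomes 1, 2 and 4.

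The 18 arrays held RNA of whole 7-day-old seedlings of 2 indica cultivars, Dagad deshi and IR20, grown in nutrient solution. Each cultivar gave 3 control arrays, 3 arrays after 3 h and 3 arrays after 6 h of drought, which was given by laying the seedlings on filter paper. The controls stayed in solution for 6 h, so the 3 h drought groups have no control of their own time, and 1 control group serves both drought times of a cultivar. The arrays are labelled as biological replicates without saying whether they came from separate cultures, so the p-values measure only the spread between these arrays, which may be partly technical.

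Values are the deposited intensities on a linear scale. Changes are differences of group means of log2(intensity + 16), a scale that understates the change of dim probe sets, with the standard error (SE) and adjusted p from limma over 40094 probe sets, where an adjusted p under 0.05 was called. In whole seedlings a change of tissue composition and a change of transcript per cell cannot be told apart. Leaf genes (CAB2R between 29751 and 48258, OsrcaA1 between 5547 and 25521) and the root genes Lsi1, Lsi2 and NAS1 (374.8 to 8947) were bright on every array, with the root gene HKT1.5 dimmer at 23.7 to 157. An RNA index was formed for each array as the log2 ratio of 3' to 5' signal, averaged over the control transcripts actin, GAPDH and cyclophilin, which is higher for broken RNA. It lay between 4.12 and 8.88 on the 6 control arrays and between 1.80 and 3.19 on the 12 drought arrays, so it moves with drought without overlap. A fit with the index as a covariate takes its slope from arrays within groups, so it cannot tell drought and the index apart. Dagad deshi control replicate 1 stood apart. It had the highest index (8.88), a lower correlation with the arrays of its own group (mean r = 0.980, against 0.988 to 0.999 for the other 17 arrays) and a Rubisco activase (OsrcaA1) intensity of 8820 against 22346 and 25521 in the other control arrays of that cultivar. Without it all 24 calls and non-calls of the WRKY probe sets against control kept their side of the threshold.

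All 6 WRKY probe sets rose in Dagad deshi at both times of drought, and in IR20 all 6 rose at 6 h and 5 at 3 h, where WRKY62 did not pass the test. For comparison, 23.6% of all tested probe sets in Dagad deshi and 14.9% in IR20 were called higher at 3 h, and 24.7% and 20.4% at 6 h. Centring each array on its median moved the share of higher among all calls from 33.3% to 52.3% at 3 h and from 35.1% to 50.1% at 6 h in Dagad deshi, with the 6 WRKY probe sets still called higher. The median log2 change of the 6 probe sets was 2.66 in Dagad deshi and 1.63 in IR20 at 3 h, and 3.34 and 2.14 at 6 h, while the median over all tested probe sets lay between -0.03 and 0.01. WRKY71 and WRKY24 had made most of their rise by 3 h, WRKY76 made most of its rise after 3 h, and WRKY51 and WRKY62 rose further between 3 h and 6 h in IR20.

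**Figure D1:**
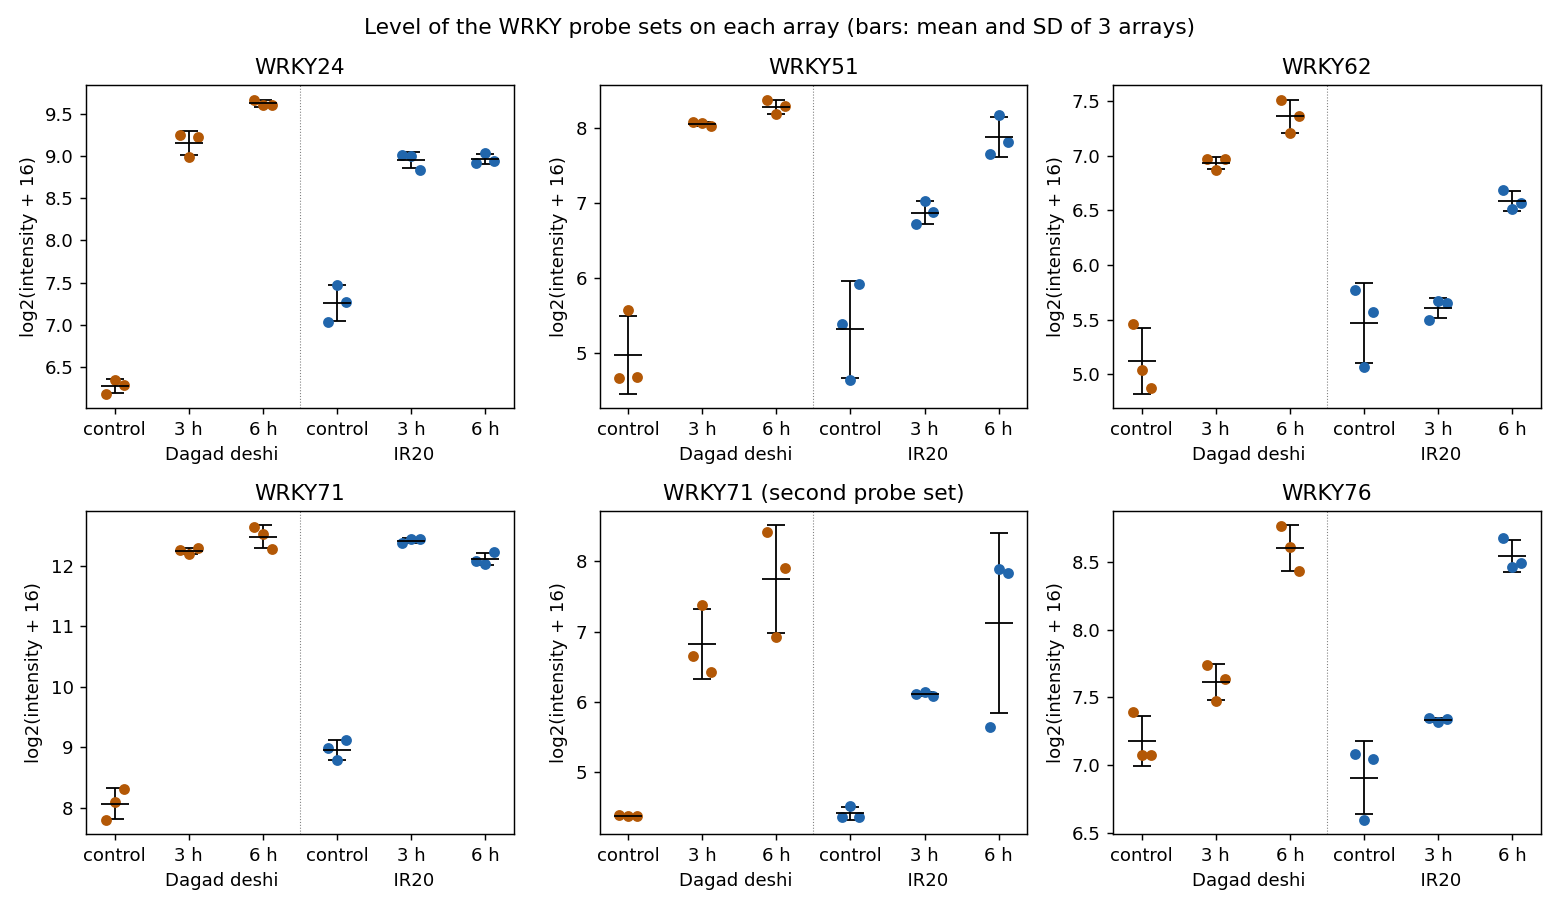
Level of each WRKY probe set on every array, as log2(intensity + 16), by cultivar (left Dagad deshi, right IR20) and treatment. Points are arrays and bars are the mean and SD of 3 arrays. WRKY71 rises from control means of 8.07 and 8.97 to means between 12.12 and 12.49 under drought, WRKY62 in IR20 stays at control level at 3 h, and WRKY76 is highest at 6 h in both cultivars.

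WRKY71 (LOC4328512), the best known of the repressors of alpha-amylase, was by its first probe set the brightest and changed most on the log2 scale used. Its intensities in the Dagad deshi controls were 208, 259 and 301. They were 4898, 4671 and 5019 at 3 h of drought and 6388, 5896 and 4966 at 6 h. Every drought array thus lay far above every control array of that cultivar. In IR20 the controls read 492, 427 and 539.9, the 3 h arrays 5313, 5546 and 5544, and the 6 h arrays 4335, 4195 and 4786. Here too no drought array came near a control array, the controls of IR20 all lay above those of Dagad deshi, and the 3 h arrays of IR20 all lay above its 6 h arrays.

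The log2 change of WRKY71 was 4.18 (SE 0.119, adjusted p = 7.10e-13) at 3 h in Dagad deshi, an 18.1-fold rise on the scale used, and 4.41 (adjusted p = 3.43e-13) at 6 h. In IR20 it was 3.45 (adjusted p = 1.56e-11) at 3 h and 3.15 (adjusted p = 2.07e-11) at 6 h. Only 481 of the 40094 probe sets rose more than WRKY71 at 3 h in Dagad deshi, and 248 did so in IR20. The level did not pass the test between 3 h and 6 h in either cultivar, with a difference of 0.23 (95% interval -0.02 to 0.49, adjusted p = 0.290) in Dagad deshi and -0.30 (95% interval -0.56 to -0.05, adjusted p = 0.0826) in IR20. The IR20 difference was called under 7 of 32 alternatives, among them those without Dagad deshi control replicate 1 (adjusted p = 0.0323) and without Dagad deshi control replicate 3 (adjusted p = 0.0497), and 5 other settings with adjusted p between 0.00495 and 0.0487.

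The second probe set of WRKY71 had very low control intensities, 5.0, 4.8 and 4.9 in Dagad deshi and 4.7, 7.1 and 4.7 in IR20, below the median intensity of every array (7.13 to 8.20). At 3 h it read 84.5, 150.5 and 70.1 in Dagad deshi and 53.2, 54.6 and 51.9 in IR20. At 6 h the readings were 328, 105 and 223 in Dagad deshi and 34.3, 222 and 212 in IR20. Against control it moved in the same direction as the first probe set. From 3 h to 6 h in IR20 its difference was 1.01 and that of the first probe set -0.30, neither called. Over the 12 drought arrays the 2 probe sets had a Pearson r of 0.066. The second probe set scattered far more between replicates at 6 h. Its lowest 6 h reading came from IR20 6 h replicate 1, whose RNA index of 3.19 was the highest of the 12 drought arrays. The log2 changes were 2.43 (SE 0.493, adjusted p = 0.000605) and 3.36 (adjusted p = 3.04e-05) in Dagad deshi and 1.69 (adjusted p = 0.0134) and 2.70 (adjusted p = 0.000312) in IR20. As ratios of mean intensity the second probe set rose more than the first in Dagad deshi (20.8 against 19.0 at 3 h, 44.7 against 22.5 at 6 h). In IR20 it rose less at 3 h (9.73 against 11.2) and more at 6 h (28.5 against 9.13). With the index as a covariate the 3 h calls were lost, at 1.70 (adjusted p = 0.192) in Dagad deshi and 1.34 (adjusted p = 0.0992) in IR20. The first probe set stayed called in all 4 comparisons with that term, at 3.66, 3.90, 3.21 and 2.85 in the same order. Its Pearson r with the index was -0.757 over the 6 control arrays and 0.034 over the 12 drought arrays.

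**Figure D2:**
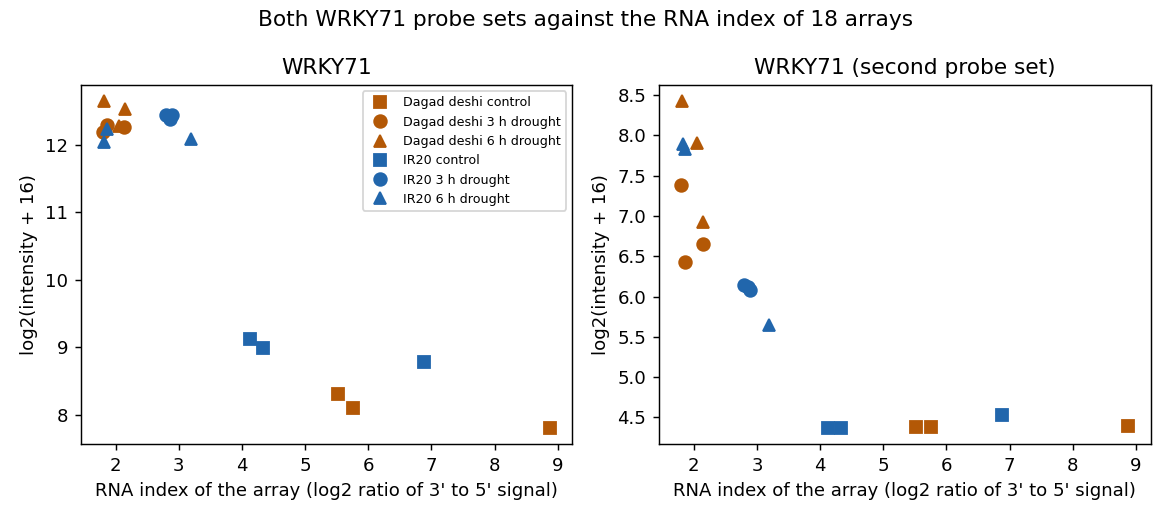
Level of the first (left) and second (right) WRKY71 probe set, as log2(intensity + 16), against the RNA index of each of the 18 arrays, coloured by cultivar and with a symbol for each treatment. On the left the drought arrays lie together far above the control arrays at any index between 1.80 and 3.19. On the right the drought arrays with an index between 2.79 and 3.19, IR20 at 3 h and IR20 6 h replicate 1, lie lowest among the drought arrays.

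WRKY24 (LOC4327518), a repressor of both gibberellin and abscisic acid responses in aleurone cells, was dim in the Dagad deshi controls at 56.5, 65.3 and 61.9. It read 595, 495 and 582 at 3 h and 799, 761 and 762 at 6 h in that cultivar. In IR20 it stood at 115, 161 and 138 in the controls, 502, 498 and 442 at 3 h and 468, 510.2 and 476 at 6 h. All Dagad deshi 6 h arrays were thus above all 3 h arrays, whereas the 2 drought times of IR20 overlapped.

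In Dagad deshi the log2 change of WRKY24 was 2.89 (SE 0.101, adjusted p = 5.87e-12) at 3 h and 3.36 (adjusted p = 1.11e-12) at 6 h, and in IR20 it was 1.70 (adjusted p = 6.36e-09) and 1.71 (adjusted p = 2.66e-09). The further rise from 3 h to 6 h in Dagad deshi was 0.47 (adjusted p = 0.00721), and the difference between the times in IR20 was 0.01 (95% interval -0.20 to 0.23, adjusted p = 0.960). WRKY24 and WRKY76 were the 2 of 6 probe sets called higher at 6 h than at 3 h in Dagad deshi, against 5.33% of all tested probe sets, and 3 of 6 (WRKY51, WRKY62 and WRKY76) were so called in IR20, against 10.9%.

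WRKY51 (LOC4335388), a partner of WRKY71 at an alpha-amylase promoter, was near background in the controls, at 9.4, 31.7 and 9.5 in Dagad deshi and 25.8, 8.8 and 44.6 in IR20. At 3 h it reached 254, 254 and 245 in Dagad deshi but only 89.3, 114 and 102 in IR20. By 6 h the readings were 317, 275 and 299 in Dagad deshi and 186, 273 and 209 in IR20. The 3 h arrays of the 2 cultivars did not overlap, while at 6 h the highest IR20 array (273) came up to just below the lowest Dagad deshi array (275).

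The log2 change of WRKY51 was 3.09 (SE 0.285, adjusted p = 2.32e-07) and 3.32 (adjusted p = 9.96e-08) in Dagad deshi at 3 h and 6 h, and 1.56 (adjusted p = 0.000448) and 2.57 (adjusted p = 2.37e-06) in IR20. From 3 h to 6 h it rose by 1.01 in IR20 (adjusted p = 0.0166), a call that was lost on leaving out IR20 3 h replicate 1 (adjusted p = 0.0638) and on leaving out IR20 6 h replicate 2 (adjusted p = 0.0741). The difference in Dagad deshi was 0.23 (95% interval -0.38 to 0.84, adjusted p = 0.897). With the RNA index as a covariate the changes of WRKY51 against control were smaller, at 1.96, 2.20, 1.03 and 1.90 in the order given, and all stayed called. The Pearson r of WRKY51 with the index was -0.723 over the 6 control arrays and -0.793 over the 12 drought arrays.

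WRKY62 (LOC4347070), also named XB10 as a protein that binds the immune receptor XA21, read 27.9, 16.9 and 13.3 in the controls of Dagad deshi, then 109.5, 101 and 109 at 3 h and 167, 132 and 149 at 6 h. In IR20 the controls read 38.6, 17.5 and 31.5 and the 3 h arrays 29.2, 34.9 and 34.3, so those groups overlapped. The 6 h arrays of IR20 read 87.1, 75.2 and 78.8, above all control and 3 h arrays of that cultivar but below all drought arrays of Dagad deshi.

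The log2 change of WRKY62 was 1.81 (SE 0.172, adjusted p = 3.05e-07) and 2.24 (adjusted p = 2.73e-08) in Dagad deshi, and in IR20 it was 0.14 (95% interval -0.23 to 0.51, adjusted p = 0.691) at 3 h and 1.12 (adjusted p = 6.32e-05) at 6 h. Without IR20 control replicate 2, its dimmest control array in that cultivar, the 3 h value was -0.06. From 3 h to 6 h WRKY62 rose by 0.98 in IR20 (adjusted p = 0.000556), and in Dagad deshi the difference was 0.43 (adjusted p = 0.150).

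WRKY76 (LOC4347069), its neighbour on chromosome 9 and known for raising cold tolerance while lowering blast resistance when overexpressed, made its larger step after 3 h. In Dagad deshi it read 152, 119 and 119 in the controls, 197, 162 and 183 at 3 h and 420.0, 374 and 329.5 at 6 h. In IR20 it read 119.5, 80.9 and 116 in the controls, 147, 144 and 146 at 3 h and 394, 337 and 343 at 6 h. In both cultivars the groups rose in 2 steps with no overlap, a small one to 3 h and a larger one to 6 h.

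The log2 change of WRKY76 at 3 h was 0.44 (SE 0.137, adjusted p = 0.0113) in Dagad deshi and 0.43 (adjusted p = 0.0229) in IR20, and at 6 h it was 1.42 (adjusted p = 3.41e-07) and 1.64 (adjusted p = 1.11e-07). The rise from 3 h to 6 h was 0.99 (adjusted p = 0.000243) and 1.21 (adjusted p = 1.08e-05). The small 3 h rise was less firm than the 6 h rise. In IR20 it was 0.27 (adjusted p = 0.116) without IR20 control replicate 2, and its adjusted p lay between 0.0511 and 0.0592 when any 1 of the 3 h arrays of IR20 was left out. With the RNA index as a covariate the adjusted p was 0.214 in Dagad deshi and 0.0626 in IR20 at nearly the same size, and in a fit of only the groups compared it was 0.0516 and 0.0947.

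**Figure D3:**
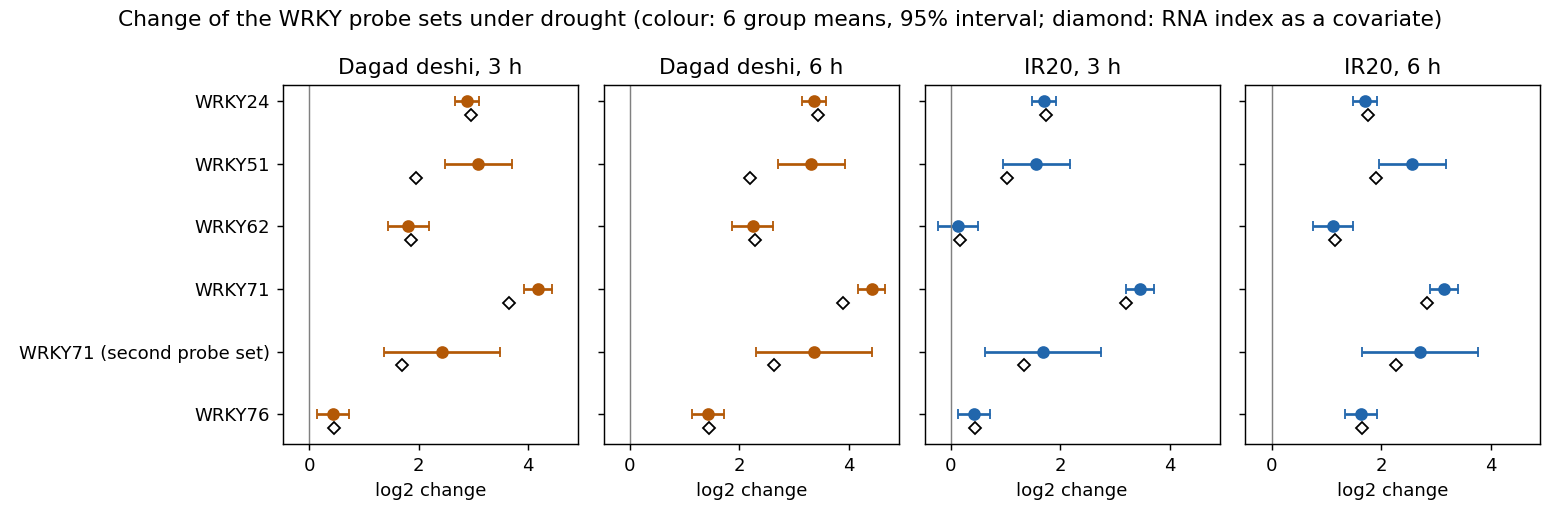
Log2 change of each WRKY probe set against the control of its cultivar at 3 h and 6 h of drought, in 4 panels. Coloured points are the differences of 6 group means with 95% intervals, and open diamonds are the same changes with the RNA index of the array as a term. On this scale the first WRKY71 probe set changes most in each panel, and the interval of WRKY62 at 3 h in IR20 crosses 0. The diamonds of WRKY51, WRKY71 and the second WRKY71 probe set lie to the left of their points, at smaller changes.

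The cultivars differed before drought in WRKY24 and WRKY71, which were 0.99 (adjusted p = 6.52e-06) and 0.89 (adjusted p = 6.54e-05) higher on the log2 scale in IR20 controls than in Dagad deshi controls. These were the 2 of 6 probe sets called higher, against 17.2% of all tested probe sets (median centring moved the share of higher among all calls from 32.5% to 57.2%). The differences of the other genes were 0.34 for WRKY51 (95% interval -0.27 to 0.95), 0.35 for WRKY62 (-0.02 to 0.71) and -0.27 for WRKY76 (-0.56 to 0.02). The second WRKY71 probe set was at 0.04 (95% interval -1.02 to 1.10, adjusted p = 0.956). Control arrays varied more between replicates than drought arrays, with a median SD over probe sets of 0.104 and 0.0928 against 0.0459 to 0.0714. Without IR20 control replicate 2 the controls also differed in WRKY51 (0.68, adjusted p = 0.0358) and WRKY62 (0.55, adjusted p = 0.00963), and WRKY62 was called too without Dagad deshi control replicate 1 (0.51, adjusted p = 0.0217).

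At 3 h of drought the order was different. WRKY51 and WRKY62 were lower in IR20 than in Dagad deshi, by log2 differences of -1.19 (adjusted p = 0.00422) and -1.33 (adjusted p = 2.11e-05), and these were the 2 of 6 called lower, against 16% of all tested probe sets. WRKY24 and WRKY71, which had differed in the controls, were at -0.20 (95% interval -0.42 to 0.01, adjusted p = 0.155) and 0.17 (95% interval -0.09 to 0.42, adjusted p = 0.358). At 6 h WRKY24 (-0.66, adjusted p = 0.000212), WRKY62 (-0.77, adjusted p = 0.00396) and WRKY71 (-0.37, adjusted p = 0.0388) were lower in IR20, 3 of 6 against 11.6%. The WRKY71 difference at 6 h is close to the threshold, since the call was lost with any of 10 single arrays left out, with adjusted p of up to 0.168 (IR20 control replicate 1, Dagad deshi 3 h replicates 1 and 3, each IR20 3 h array, and replicates 1 and 2 of both 6 h groups). WRKY51 at 6 h was at -0.40 (95% interval -1.02 to 0.21) and WRKY76 at -0.06 (-0.35 to 0.23). The second WRKY71 probe set was at -0.71 at 3 h and -0.62 at 6 h, neither called. Tissue markers differed between the droughted cultivars too. OsrcaA1, of the shoot, was higher in IR20 by 1.19 at 3 h and 1.41 at 6 h, CAB2R by 0.30 at 6 h, and of 4 root genes Lsi1 (0.80 and 1.30) and Lsi2 (3.08 and 3.17) were higher at both times while HKT1.5 and NAS1 were not called. In the controls the mean log2 levels in IR20 and Dagad deshi were 12.52 and 11.26 for Lsi1 and 10.81 and 9.44 for Lsi2. They were 10.66 and 9.98 for NAS1 and 6.31 and 7.23 for HKT1.5. From control to 6 h OsrcaA1 went from 14.07 to 12.68 in Dagad deshi and from 14.39 to 14.09 in IR20. HKT1.5 went from 7.23 to 5.70 and from 6.31 to 5.37 in the same order. The part of the tissue markers in the WRKY differences was not tested. At 3 h the RNA index lay between 1.80 and 2.14 in Dagad deshi and between 2.79 and 2.89 in IR20, so cultivar and index cannot be told apart there. Over the 12 drought arrays its Pearson r was -0.793 with WRKY51, -0.668 with WRKY62 and 0.034 with the first WRKY71 probe set. With the index as a covariate the 3 h differences of WRKY51 and WRKY62 were -0.97 and -1.34, both called.

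**Figure D4:**
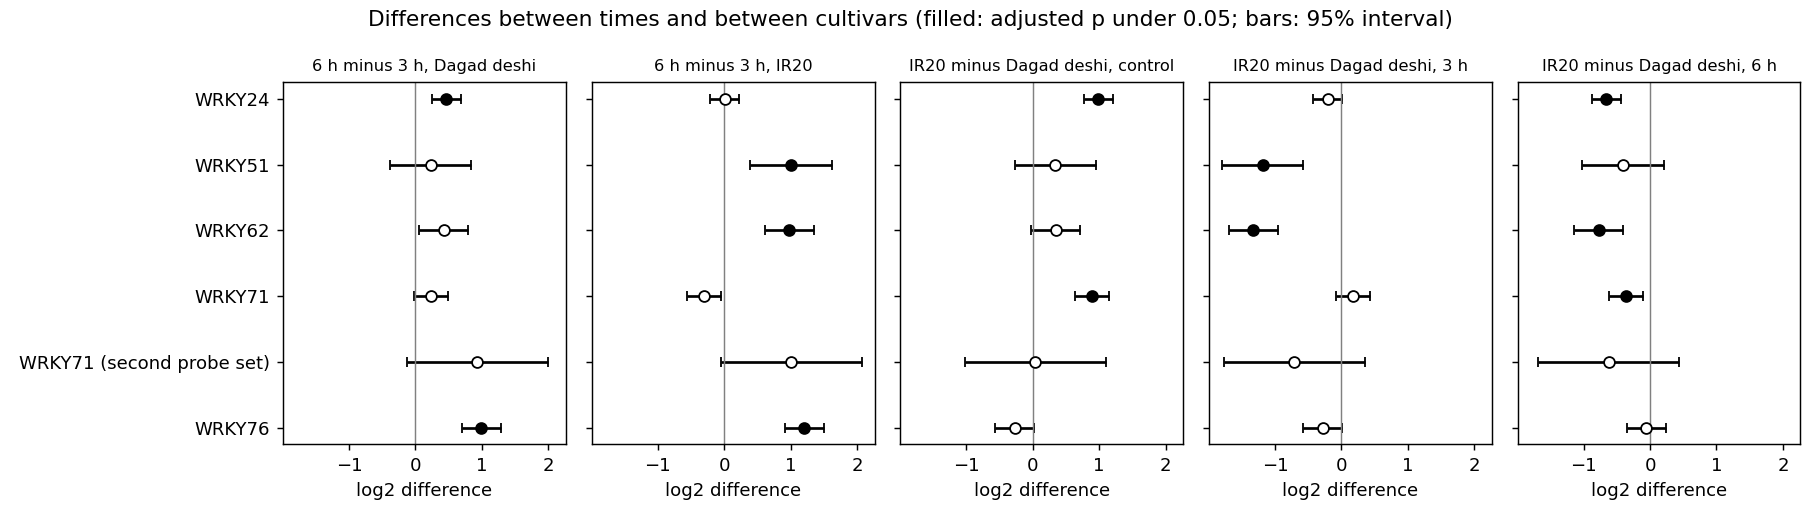
Log2 differences of each WRKY probe set between 6 h and 3 h of drought within each cultivar, and between IR20 and Dagad deshi in controls and at each drought time, with 95% intervals. Filled points had an adjusted p under 0.05. The controls differ in WRKY24 and the first WRKY71 probe set, and the 3 h arrays in WRKY51 and WRKY62. The rise from 3 h to 6 h in IR20 was called for WRKY51, WRKY62 and WRKY76.

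The response itself was smaller in IR20 than in Dagad deshi for 4 of 6 probe sets at 3 h and 3 of 6 at 6 h, by a test of the interaction of cultivar and drought, against 16.7% and 14.6% of all tested probe sets in that direction (median centring moved the share of higher among all interaction calls from 65.3% to 46.1% and from 66.2% to 40.8%). At 3 h the difference of the responses was -1.67 for WRKY62 (SE 0.243, adjusted p = 8.84e-05), -1.53 for WRKY51 (SE 0.403, adjusted p = 0.00820), -1.19 for WRKY24 (SE 0.143, adjusted p = 1.63e-05) and -0.72 for WRKY71 (SE 0.168, adjusted p = 0.00359). For WRKY51 it was -0.93 (adjusted p = 0.0691) with the RNA index as a covariate. At 6 h it was -1.64 for WRKY24 (adjusted p = 2.08e-06), -1.26 for WRKY71 (adjusted p = 8.56e-05) and -1.12 for WRKY62 (adjusted p = 0.00343), and -0.75 for WRKY51 (adjusted p = 0.146), which was called without Dagad deshi control replicate 2 (adjusted p = 0.0303) or IR20 control replicate 2 (adjusted p = 0.0210). The second WRKY71 probe set was not called, at -0.74 (adjusted p = 0.390) at 3 h and -0.66 (adjusted p = 0.456) at 6 h.

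Set beside the levels, the 3 h differences fell into 2 kinds by their calls, with WRKY71 read from its first probe set. For WRKY24 and WRKY71 at 3 h the groups that differed were the controls, and the drought levels did not pass the test. For WRKY51 and WRKY62 at 3 h it was the drought levels that differed, and the controls did not pass the test. These kinds rest on the threshold. At 3 h of drought WRKY71 was called in a fit of only the groups compared (0.17, adjusted p = 0.0150). With the RNA index as a covariate it was called too (0.27, adjusted p = 0.0260). WRKY24 there was called with array weights (-0.19, adjusted p = 0.0344). Between controls WRKY62 was called under 2 other settings and without each of 2 arrays, and WRKY51 without 1 array. At 6 h WRKY24 and WRKY71 differed both in the controls and, in the other direction, under drought. The drought difference at 6 h kept its call in 31 of 32 alternatives for WRKY24 and in 19 of 32 for WRKY71. Besides single arrays left out, that of WRKY71 was lost with no filter (adjusted p = 0.0564), with only the groups compared (adjusted p = 0.0705) and with the fold threshold. WRKY76 had a difference of the responses of -0.01 (95% interval -0.42 to 0.41) at 3 h and 0.21 (95% interval -0.20 to 0.63) at 6 h, so no difference between the cultivars was called and one of up to 0.63 on the log2 scale at 6 h is within the interval. The responses of both cultivars at the 2 times share their controls and are not independent of each other.

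WRKY71, WRKY51 and WRKY24 are known as repressors of alpha-amylase genes in the aleurone, and the 2 alpha-amylase genes read here varied widely between arrays. Whether these 2 genes are among those repressed was not tested. AMY1.1 (LOC4330832), an amylase of the germinating grain, read 18231, 5.4 and 7.4 in the Dagad deshi controls, 94.8, 83.2 and 122 at 3 h and 15640, 16842 and 1784 at 6 h. In IR20 it read 8109, 3932 and 8820 in the controls, 3310, 3157 and 3647 at 3 h and 51.3, 51.1 and 40.7 at 6 h. The readings of AMY1.1 thus differed widely even between replicates of the Dagad deshi controls, where 18231 came from replicate 1, the array that stood apart in its RNA index and OsrcaA1. AMY1.3 (LOC4345814) read between 6.3 and 7.3 on all 6 control arrays, between 185 and 553 in the drought groups other than IR20 at 6 h, and between 62.6 and 66.7 there. The 3 aleurone marker names sought matched these 2 genes. Of the 3 endosperm genes matched, GLUA-1 and PROLM25 stayed between 4.2 and 10.96 on all arrays and GLUA-2 between 180.1 and 345. Neither the part of grain tissue in the WRKY values nor a relation between WRKY levels and those of AMY1.1 or AMY1.3 was tested.

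The diterpenoid phytoalexin genes, whose activity WRKY62 and WRKY76 are known to lower, rose in Dagad deshi, with medians of 2.74 and 2.99 on the log2 scale. At each time 15 of 18 tested were called higher, against 23.6% and 24.7% of all tested probe sets. None was called lower there, against 47.3% and 45.7%. In IR20 none was called higher and 6 were lower at 3 h (median -0.44), against 21.9% of all tested probe sets called lower, and at 6 h 5 were higher and 4 lower (median -0.05, against 20.4% and 25.5% of all tested probe sets). Of those 5, named after their values were seen, CYP76M6 and CYP76M7 changed by only 0.020 and 0.031 at intensities between 5.22 and 6.76, below the median of every array. CPS4 (LOC4335090), the copalyl diphosphate synthase of the momilactone branch, had a log2 change of 5.42 (adjusted p = 5.34e-11) at 6 h in Dagad deshi and 0.42 in IR20. CYP99A3 (LOC4335091), a cytochrome P450 of the same cluster, had a 3 h change of 6.23 in Dagad deshi (adjusted p = 6.52e-09) and of -0.59 in IR20, where it rose by 1.31 at 6 h (adjusted p = 0.0183). CYP99A2 (LOC4335096) and CYP71Z6 (LOC4329725), P450s of that cluster and of another, had changes of 4.42 and 3.60 at 3 h in Dagad deshi and of -0.64 and -0.59 in IR20. MS, named after its values were seen, rose in both cultivars, by 3.10 and 2.58 at 6 h. The interaction was called lower in IR20 for 14 of 18 genes at 3 h and 13 at 6 h (against 16.7% and 14.6%), and higher for 2, CYP76M6 and CYP76M7, at 6 h (against 28.5%). In the controls 11 of the 18 were called higher in IR20 than in Dagad deshi (median 1.87, against 17.2%). A further 2 were called lower, against 14387 of 40094 tested probe sets. Most of these genes, like WRKY24 and the first WRKY71 probe set, thus started from different levels in the 2 cultivars. Some P450s of the list are near-identical copies whose probes may bind each other's transcripts.

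Genes that act around WRKY factors in defence were read from lists as well. Some MAP kinases phosphorylate WRKY proteins. The MAP kinase list held 8 genes, among them MAPKK1, a kinase of MAP kinases. Of these 8 genes, 5 were called higher in each of the 4 comparisons with control. The shares of all tested probe sets called higher were 23.6% and 24.7% in Dagad deshi at 3 h and 6 h. In IR20 they were 14.9% and 20.4%. A single gene of the list was lower, at 6 h in IR20, against 25.5%. BIMK1 (LOC4332475), a MAP kinase induced by stress and by abscisic acid, rose by 3.60 and 3.67 in Dagad deshi and by 2.20 and 2.13 in IR20, MAP3 (LOC4328297) by 2.25 at 3 h in Dagad deshi, MAPK6 (LOC4339633) by 0.67 at 3 h in IR20 and MAPKK1 (LOC4324023) by 0.63 at 6 h in Dagad deshi. In the other cultivar the mean log2 level of MAP3 went from 9.71 in controls to 10.985 at 3 h (IR20). That of MAPK6 went from 9.81 to 10.25 at 3 h and 10.47 at 6 h (Dagad deshi), and that of MAPKK1 from 10.73 to 10.68 at 6 h (IR20). A second gene matched as MAPK6 (LOC4340170) had a lower mean than control in every drought group. Of 6 salicylic acid and pathogenesis-related genes, 5 rose and 1 fell at both times in Dagad deshi (against 47.3% and 45.7% of all tested probe sets called lower), and in IR20 4 rose at 3 h, 3 rose at 6 h and 1 fell at each time (against 21.9% and 25.5% called lower). PBZ1 (LOC4352491), a pathogenesis-related protein induced by probenazole, rose by 4.42 in Dagad deshi at 6 h (adjusted p = 4.59e-07) from control readings between 527 and 2810, while IR20 controls read between 8304 and 13131 and the change there was -0.42 at 3 h and 0.49 at 6 h (adjusted p = 0.597 and 0.379). OsSGT1 (LOC4326682), matched by its name alone, rose at 3 h by 1.96 in Dagad deshi and, with an adjusted p of 0.0369, by 0.52 in IR20. NH1 (LOC4327315), the rice NPR1, rose by 1.80 at 6 h in Dagad deshi, against 0.36 for IR20 with an adjusted p of 0.343. NH3 (LOC4333666), its relative, at 3 h fell by 2.24 in Dagad deshi. In IR20 it fell by 1.00, with an adjusted p of 8.22e-06. The tables named 1 further WRKY gene, WRKY9 (LOC4343736), with changes of 2.61 and 2.63 in Dagad deshi (adjusted p = 0.000257 and 0.000239), 1.26 at 3 h in IR20, which was not called, and 1.42 at 6 h in IR20, which was.

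Over all 18 arrays each WRKY gene had a named gene of nearly the same pattern among 2475 named probe sets (2474 for WRKY71), as a description with no test. The highest Pearson r was 0.989 with JAZ11, a repressor of jasmonate signalling, for WRKY24, 0.978 with OsTLP10 for WRKY51, 0.989 with MPH1 for WRKY62, 0.993 with OsUGE-1, a UDP-glucose epimerase, for WRKY71, 0.967 with NAC071 for its second probe set and 0.972 with OsSWEET12, of the sugar transporter family SWEET, for WRKY76. The 18 points share the step from control to drought and the step in the RNA index that goes with it.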

How the data were processed

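The authors of the series labelled RNA of whole seedlings by a 3' method, hybridised 18 Affymetrix rice arrays and deposited a linear intensity for each of 57381 probe sets. The submitters' processing notes list GCOS (Affymetrix software) without a version. How probes were summarized and arrays normalized is not given in the sources used here, there are no detection calls, and 3 arrays a group limit the precision.

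Each intensity had 16 added before the log2. Among control probe sets, 19 were kept and 104 dropped. The 40094 probe sets with a mean above the 30th percentile entered 1 linear model of 6 group means (limma 3.58.1 under R 4.3.3, moderated with a trend), and p-values were adjusted by Benjamini-Hochberg for each of 11 comparisons. All 6 WRKY probe sets passed the filter. On simulated data 46 of 50 probe sets with a log2 change of 1 were called, for the 6 h comparison of Dagad deshi with 40094 probe sets in the fit. The simulated noise was independent between arrays, with the same SD in all groups for a probe set. Far fewer probe sets were changed there than the 28224 called in this comparison of the data, so the rate holds for the simulated setting only.

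Gene names came from the array's gene table and RefSeq annotation ASM3414082v1: 22436 probe sets had 1 gene, 95 several and 34850 none. RefSeq coordinates were not printed, since the deposited values name no genome build to set them against, and no sequences were used here. The tables matched 18 of 25 names sought for the phytoalexin list, 6 genes for 29 salicylic acid names and 8 for 17 MAP kinase names. Named genes were all members, up to 4 called genes of each list with the largest change against control, 1 gene most like each member, and markers of other tissues. The members, lists and alternatives were chosen with earlier results of these data known.

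Alternatives were quantile normalization, median centring, an offset of 1 or 64, a filter at the 60th percentile or none, a constant prior, array weights, a fit of only the groups compared, a replicate block, a fold threshold of 1.5, dropping cross-hybridising probe sets (_s_at, _x_at), the RNA index as a covariate, dropping the 2 control arrays with the highest index, and dropping each array in turn.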

Additional observations from a re-analysis of the deposited data

Results flagged for a closer look

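For 4 WRKY genes the response to drought differed between the cultivars by the interaction test of limma, always smaller in IR20. For WRKY71 this holds for its first probe set only. The second was not called at 3 h (-0.74, adjusted p = 0.390) or at 6 h (-0.66, adjusted p = 0.456). At 3 h the log2 difference of the responses was -1.19 for WRKY24, -1.53 for WRKY51, -1.67 for WRKY62 and -0.72 for WRKY71. At 6 h it was -1.64 for WRKY24, -1.12 for WRKY62 and -1.26 for WRKY71. These 7 values are those that passed the test of the difference itself. They are 4 of 6 probe sets at 3 h and 3 of 6 at 6 h, against 16.7% and 14.6% of all tested probe sets called in that direction. In both cultivars the drought values are set against control arrays with a higher RNA index (mean 6.72 in Dagad deshi and 5.11 in IR20), and with that index as a covariate 1 of the 7 calls, WRKY51 at 3 h, was lost. With the fold threshold of 1.5 the calls of WRKY51 (adjusted p = 0.136) and WRKY71 (adjusted p = 0.972) at 3 h were lost. So was that of WRKY62 at 6 h (adjusted p = 0.295). With 3 arrays a group, no test for an outlying value within a group was run.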

How the results depend on the processing

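Each of 66 values (6 probe sets in 11 comparisons) was computed under 14 other settings and without each of 18 arrays. Of the 24 values against control, 20 kept their side of the threshold with the RNA index as a covariate, 21 with the fold threshold of 1.5 and 22 to 24 under the other settings and without single arrays. The number of WRKY probe sets called in Dagad deshi at 3 h went from 6 to 4 with the index. It went to 5 with the fold threshold and with only the groups compared. In IR20 at 3 h the number went from 5 to 3 with the fold threshold and to 3 with the index. From 3 h to 6 h in Dagad deshi it went from 2 to 4 with array weights and to 0 with the fold threshold, and in IR20 from 3 to 5 and to 1. Between controls it went from 2 to 1 with the fold threshold. At 3 h between the cultivars it went from 2 to 4 with array weights, to 4 with only the groups compared and to 1 with the fold threshold. With the fold threshold it also went from 3 to 0 at 6 h between the cultivars. For the interaction it went with that threshold from 4 to 2 at 3 h and from 3 to 2 at 6 h. Without 1 array the count lay between 4 and 5 in IR20 at 3 h, 2 and 4 from 3 h to 6 h in IR20, 2 and 4 between controls, 2 and 3 at 6 h between the cultivars and 3 and 4 for the interaction at 6 h. The cause was not tested.

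No value that changed sign was called in either fit. WRKY51 between controls was -0.039 with the index. WRKY62 at 3 h in IR20 was -0.10 with array weights and -0.063 without the 2 control arrays of the highest index. The second WRKY71 probe set between controls was -0.00075 with array weights, -0.21 with the index and -0.012 without those 2 arrays. The interaction of WRKY76 at 3 h was 0.0062 with quantile normalization and 0.0030 with a pseudocount of 1, and at 6 h it was -0.067 with array weights and -0.048 without those 2 arrays. Without 1 array WRKY24 from 3 h to 6 h in IR20 lay between -0.043 and 0.045, WRKY62 at 3 h in IR20 between -0.063 and 0.29, the second WRKY71 probe set between -0.015 and 0.064 (controls), -1.04 and 0.11 (6 h) and -1.07 and 0.077 (interaction at 6 h), and WRKY76 between -0.14 and 0.024 (6 h) and -0.16 and 0.079 (interaction at 3 h).

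The replicate numbers did not pair the arrays: deviations of same-numbered arrays correlated between -0.55 and 0.35, 12 of 45 over 0.1. With the replicate block WRKY76 between controls was -0.27 (adjusted p = 0.0491), giving 3 calls instead of 2, and no other call changed. Low signal limits the control values of WRKY51, WRKY62 and the second WRKY71 probe set.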

Other observations

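Leaving out IR20 6 h replicate 1, the array with the highest RNA index of the drought arrays, gave the second WRKY71 probe set a rise of 1.75 (adjusted p = 0.00175 from limma) from 3 h to 6 h in IR20, against 1.01 (adjusted p = 0.175) with it. AMY1.1 was lower at 6 h than in the controls of IR20, by a log2 difference of -6.69 (adjusted p = 0.00756), on a probe set whose standard error was 1.84.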
